A study of Mus musculus with 23 samples.

Results

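The 9 genes described here encode central components of insulin signaling: the receptor Insr, the adaptors Irs1 and Irs2, the PI3K subunit Pik3r1, the kinase Akt2, the AKT substrates Foxo1 and Tbc1d4, and the receptor-binding inhibitors Grb14 and Grb10. They were chosen by name for their role in the pathway, with earlier results of these data known, and are 9 of the 47311 genes measured. All 9 passed the filter on low counts that left 19882 genes for testing. The tissue was tumor-adjacent mammary fat pad of female mice of the strain C57BL/6J, 23 in all, each giving 1 RNA-seq library. The groups were obese mice given anti-PD-1 (8 libraries), obese mice given IgG2a (5), lean mice given anti-PD-1 (5) and lean mice given IgG2a (5). Obese mice are labelled with food that has 60% of its energy as fat and lean mice with food that has 10%. The treatment text, which is the same for every sample, describes only the food with 60% fat, eaten between 8 and 26 weeks of age. Every mouse, including the lean mice given IgG2a, carried a tumor from 250000 E0771-luciferase cells, a mouse mammary carcinoma line, placed in mammary gland 4. No group lacked a tumor. Anti-PD-1, an antibody against the T cell checkpoint receptor PD-1, or its isotype control IgG2a was given at 200 µg every 3 days from day 3 after the cells until day 21.

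Insulin binding activates the receptor's tyrosine kinase, which phosphorylates the IRS adaptors and so recruits PI3-kinase, whose lipid product brings AKT to the membrane. In fat cells AKT then phosphorylates TBC1D4, which lets GLUT4 vesicles reach the cell surface and take up glucose, and FOXO1, which leaves the nucleus. GRB14 and GRB10 bind the activated receptor and dampen its signal. These steps run largely through phosphorylation, which RNA levels do not measure.

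Depth was lowest in lean IgG2a 3, with 49438121 estimated counts, and highest in lean IgG2a 5, with 77369057. Fat cell markers were present in every library, with all 12 of the list detected. B cell markers separated the libraries into distinct sets that are not the study's groups. A score, the mean log2 CPM of 10 B cell genes, was above 4 in 11 libraries (5.16 to 8.29) and below 0 in the other 12 (-3.15 to -0.57). CPM here is the count scaled to library size after TMM normalization. The score was above 4 in 4 of 13 obese libraries (anti-PD-1 3 and 4, IgG2a 1 and 3) and in 7 of 10 lean libraries (anti-PD-1 1, 3 and 5, IgG2a 1 to 4). A mammary lymph node is normally embedded in this fat pad, and its stroma genes were also high in the libraries above 4. The diet comparisons therefore mix unequal shares of these libraries, so the diet results of the members are also given within them. Liver genes were high in obese IgG2a 5 (Alb 6363 CPM, at most 222 elsewhere). In bulk tissue, fewer cells of a type and less RNA per cell cannot be told apart.

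Promoter sequences of Irs1 and Irs2 are shown because these adaptors share a pair of motifs close to their starts. The sequence of Grb14 is shown because it was the member with the largest diet difference across antibodies. Like every member with a promoter entry other than Irs1 and Irs2, Grb14 has neither motif. A link between these motifs and the diet differences was not tested. The windows are from RefSeq on GRCm38.p6, run from 250 bases before to 50 bases after the start, and lie on the minus strand at chr1:82291390-82291689 for Irs1, chr8:11008880-11009179 for Irs2 and chr2:65022717-65023016 for Grb14. They are written 5′ to 3′ in the direction of transcription. The RefSeq starts can differ from the gene bounds given below for each member. The Grb14 window lies inside its gene bounds (chr2:64912476-65024987), and the Irs2 window lies outside its own (chr8:10984681-11008458). A motif that is absent is therefore absent from the window only, and other starts of these genes were not searched. Capitals mark CACGTG, an E-box, and TGTTTTG, a sequence known as an insulin response element that FOXO proteins bind.
Irs1: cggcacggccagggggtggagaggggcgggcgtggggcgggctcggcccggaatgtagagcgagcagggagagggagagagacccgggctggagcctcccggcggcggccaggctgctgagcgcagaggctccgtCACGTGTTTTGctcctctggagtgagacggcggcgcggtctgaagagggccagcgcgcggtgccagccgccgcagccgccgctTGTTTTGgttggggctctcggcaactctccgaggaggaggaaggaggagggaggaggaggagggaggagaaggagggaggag
Irs2: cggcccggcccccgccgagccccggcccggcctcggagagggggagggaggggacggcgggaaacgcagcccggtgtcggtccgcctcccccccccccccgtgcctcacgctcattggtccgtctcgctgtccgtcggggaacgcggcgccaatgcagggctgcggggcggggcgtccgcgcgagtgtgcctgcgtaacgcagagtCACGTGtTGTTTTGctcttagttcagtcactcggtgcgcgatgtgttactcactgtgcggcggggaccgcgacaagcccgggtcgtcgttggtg
Grb14: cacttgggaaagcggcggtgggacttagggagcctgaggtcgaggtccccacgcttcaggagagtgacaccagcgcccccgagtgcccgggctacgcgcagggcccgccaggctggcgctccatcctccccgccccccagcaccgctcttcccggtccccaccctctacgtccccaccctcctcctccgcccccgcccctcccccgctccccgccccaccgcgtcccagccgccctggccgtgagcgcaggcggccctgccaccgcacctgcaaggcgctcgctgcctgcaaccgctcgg
In Irs2 the E-box is followed after 1 base by TGTTTTG, and the E-box ends 38 bases before the start. In Irs1 the E-box overlaps TGTTTTG by 2 bases and ends 109 bases before the start, and another TGTTTTG follows 77 bases after the E-box. Searched on both strands, CACGTG was in 7.15% and TGTTTTG in 6.28% of 32851 RefSeq windows of the same length, some of which belong to the same gene. Both motifs with at most 10 bases between them, or overlapping, were in 18 windows (0.0548%). The Grb14 window had neither motif nor GTAAACA, the FOXO consensus found in 3.65% of windows, but 5 matches to the GC box GGGCGG (35.7% of windows hold at least 1). The motifs were chosen after these sequences had been read, and a match describes letters, not binding. Of the 9 members, 8 had an entry in the promoter table, and among them CACGTG and TGTTTTG were found only in Irs1 and Irs2.

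Akt2 was the most abundant member. On the TPM scale, which corrects for transcript length and so allows levels of different genes to be compared, its median over the 23 libraries was 149.5 TPM, and it was the highest of the 9 in every library. Pik3r1 followed at 37.1 TPM. The next levels, medians over all libraries, were 17.4 TPM for Tbc1d4, 13.3 TPM for Grb14, 12.5 TPM for Foxo1 and 12.5 TPM for Insr. Irs2 had a median of 8.48 TPM, Grb10 8.33 TPM and Irs1 4.78 TPM. From Pik3r1 to Grb10, the ranges over libraries of neighbouring members overlapped. Tbc1d4 was above Pik3r1 in obese anti-PD-1 3 (44.7 and 25.9 TPM) and obese anti-PD-1 4 (26.75 and 21.65 TPM). Members are measured in the same libraries, so overlapping ranges cannot settle their order, which was not tested within libraries. Irs1 was the lowest of the 9 in 22 of 23 libraries and varied most, between 0.312 and 15.9 TPM. Further values are in CPM unless TPM is named. CPM is the scale of the tests and does not correct for length. The scales can differ in direction: median TPM of Akt2 and of Pik3r1 was higher in obese than in lean mice given anti-PD-1, and their fitted differences on the count scale were below 0. The median difference of all genes in that comparison was 0.27 on the log2(TPM + 1) scale and 0.08 on the count scale.

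Across both antibodies, obese fat pads had more RNA of the inhibitor Grb14 and of the adaptor Irs2 than lean fat pads, by a log2 fold change of 1.37 ± 0.32 and 0.91 ± 0.27 (± SE). The other 7 members did not pass the test. Called members were thus 2 of 9, and 18.8% of all genes were called (10.6% as higher and 8.15% as lower). The tests were edgeR's quasi-likelihood test, Benjamini-Hochberg adjusted over the 19882 genes and called at an adjusted p under 0.05, and the adjusted p was 0.00427 for Grb14 and 0.0201 for Irs2. The median log2 fold change was 0.35 over the 9 members and 0.12 over all genes. In anti-PD-1 mice the same members, Grb14 and Irs2, were called, 2 of 9 beside 10.1% of all genes (5.2% as higher and 4.85% as lower). In IgG2a mice 0 of 9 were called beside 5.79% of all genes (2.68% as higher and 3.12% as lower); 3 of the 9 had an unadjusted p under 0.05, DESeq2 called 1 and limma-voom with library weights 4. Across antibodies 9 of 12 skeletal muscle, 11 of 11 epithelium and 3 of 12 adipocyte markers also fell in obese mice, and 5 of 7 macrophage and 5 of 11 liver markers rose. The liver score was high in 1 library, obese IgG2a 5 (8.84), and at most 1.95 in the others. Skeletal muscle scores were high in lean anti-PD-1 1 and 2 (6.14 and 7.81), lean IgG2a 1 and 2 (7.79 and 4.76) and obese IgG2a 3 (4.77). They were at most 0.96 elsewhere. For both lists the medians of the summed markers ran against the direction of the calls. Those medians were 32.1 CPM in obese and 105.4 CPM in lean mice for liver, and 32.05 and 24.1 CPM for skeletal muscle. The B cell, adipocyte and skeletal muscle scores were each fitted as a covariate, and the part of the other cell types in the member values was not tested.

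**Figure D1:**
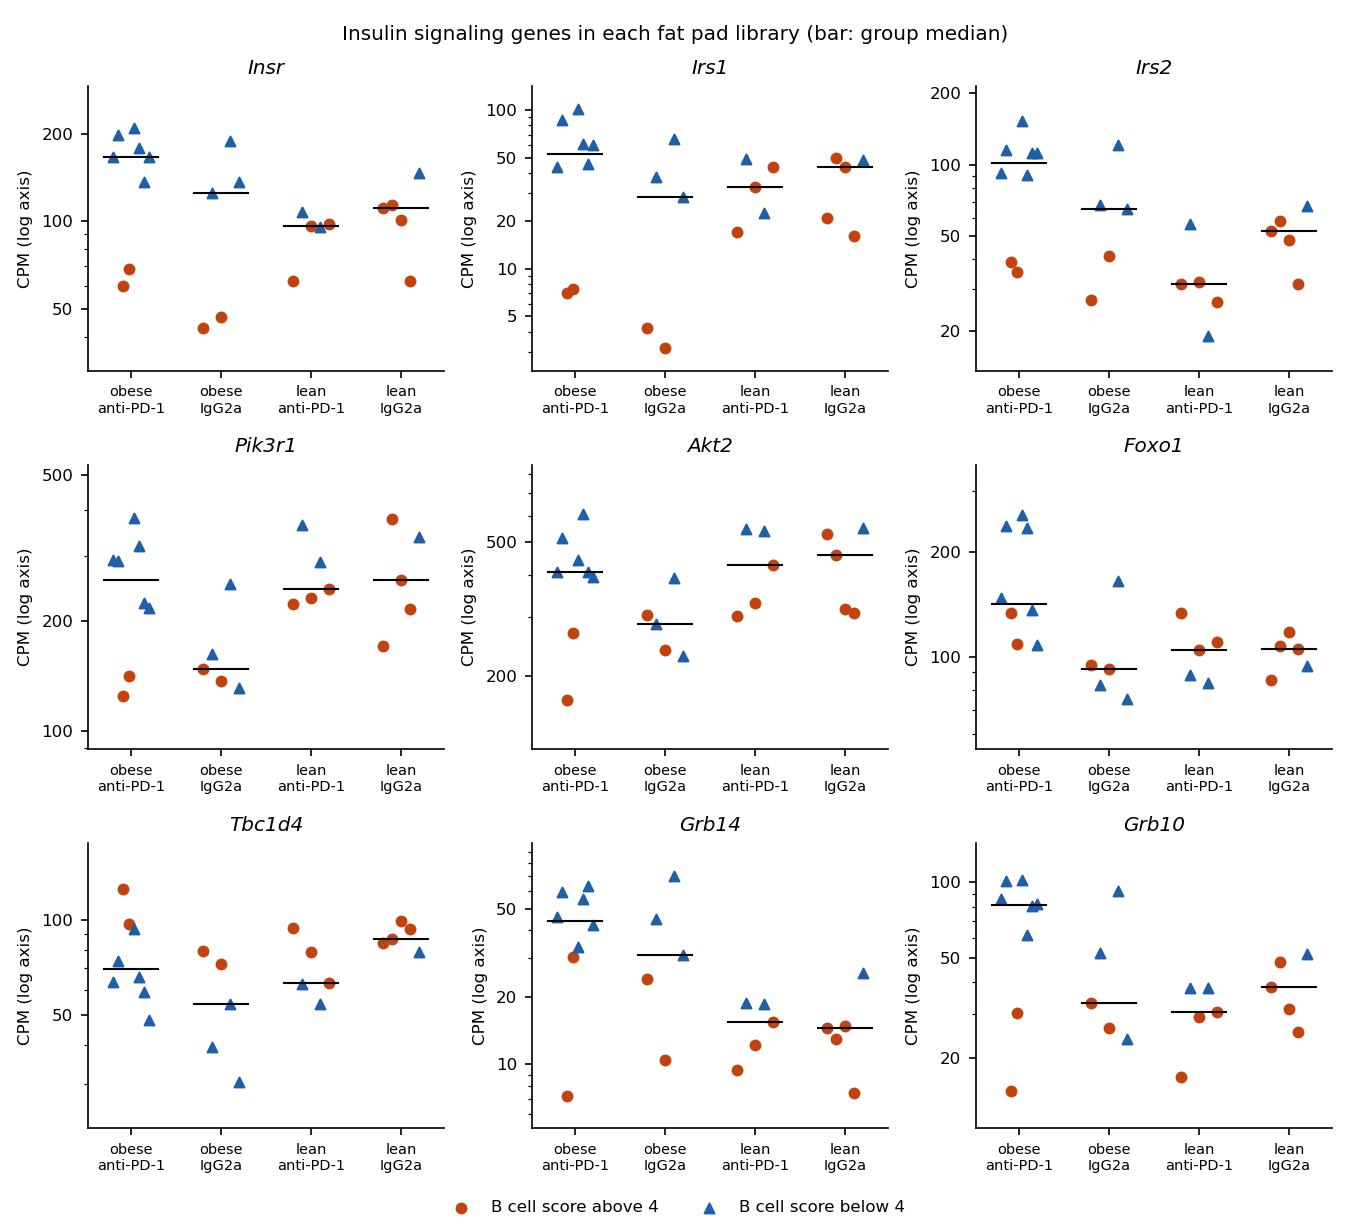
CPM of the 9 members (log axis) in each library of the 4 groups, with a bar at the group median. Circles are libraries with a B cell score above 4 and triangles those below; in Irs1 the 4 circles of obese mice, 3.18 to 7.48 CPM, lie below every other library.

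Insr, the receptor gene (ENSMUSG00000005534, GRCm38 chr8:3122061-3279617, minus strand), had 59.9, 165.5 and 208 CPM as the lowest, median and highest of the obese anti-PD-1 libraries and 42.8, 125, 46.6, 189 and 136 CPM in obese IgG2a 1 to 5. It had 62.0, 107, 96.2, 95.5 and 97.8 CPM in lean anti-PD-1 1 to 5 and 111, 114, 101, 62.1 and 146 CPM in lean IgG2a 1 to 5. The obese libraries spread to both sides of the lean ones. The diet difference did not pass the test across antibodies (log2 fold change 0.35 ± 0.25, adjusted p = 0.390), in anti-PD-1 mice (0.69 ± 0.35, adjusted p = 0.231) or in IgG2a mice (0.02 ± 0.38, adjusted p = 0.992).

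Within the B cell sets the Insr ranges of the diets still overlapped in CPM. In TPM they overlapped above 4 but not below 4, with 19.2 to 56.9 TPM in obese and 7.79 to 15.75 TPM in lean mice. Among libraries with a score above 4, Insr had 42.8 to 68.2 CPM in 4 obese mice (mean 54.4 ± 11.8 SD) and 62.0 to 114 CPM in 7 lean mice (91.9 ± 21.4). Among libraries below 4 it had 125 to 208 CPM in 9 obese mice (167 ± 29.4) and 95.5 to 146 CPM in 3 lean mice (116 ± 26.7). In the fit by group and B cell set given next, lean IgG2a mice below 4 are 1 library, lean IgG2a 5. Its diet contrasts weight the antibodies equally, so that library counts as much as the 2 lean anti-PD-1 libraries together. For every member, the estimates below 4 and the differences between the sets rest on it to that extent and need not match the pooled means. In a fit with 1 mean per group and B cell set, added after the data were seen, Insr fell in obese mice above 4 (-0.76 ± 0.18, adjusted p = 0.00742) and was not called below 4 (0.41 ± 0.21, adjusted p = 0.157). The diet effect differed between the sets by -1.18 ± 0.28 (adjusted p = 0.0162, above 4 minus below 4). With antibody left out of that fit the difference was -1.11 (adjusted p = 0.0231), and it lost its call without obese IgG2a 1 (-0.97, adjusted p = 0.0607), obese IgG2a 3 (-1.02, 0.0642) or lean anti-PD-1 4 (-1.16, 0.0550). In that fit the fall above 4 was also lost without obese IgG2a 1 (-0.53, adjusted p = 0.116) or obese IgG2a 3 (-0.58, adjusted p = 0.116), and below 4 Insr was called as higher without lean IgG2a 5 (0.78, adjusted p = 0.0379).

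Irs1, an adaptor (ENSMUSG00000055980, chr1:82233101-82291416, minus strand), showed the widest split of any member. It had 7.06 and 7.48 CPM in obese anti-PD-1 3 and 4, and 4.23 and 3.18 CPM in obese IgG2a 1 and 3, the 4 obese libraries with a B cell score above 4. In the other 9 obese libraries it had between 28.3 and 101 CPM. Lean anti-PD-1 1 to 5 had 17.0, 49.4, 32.8, 22.4 and 43.8 CPM, and lean IgG2a 1 to 5 had 20.9, 50.0, 44.0, 16.1 and 48.4 CPM. No lean library, whichever its score, was as low as those 4 obese libraries. Over all libraries the diet difference of Irs1 was 0.14 ± 0.47 (adjusted p = 0.903), and the sets had estimates of opposite sign. In mice with a score above 4 Irs1 fell in obesity (-2.62 ± 0.39; 5.49 ± 2.11 CPM in 4 obese and 32.1 ± 14.2 CPM in 7 lean mice; adjusted p = 1.1e-04), with no overlap. Below 4 it was not called (0.38 ± 0.39, adjusted p = 0.520; 58.9 ± 23.4 CPM in 9 obese and 40.1 ± 15.3 CPM in 3 lean mice). The diet effect differed between the sets by -3.00 ± 0.57 (adjusted p = 0.00642). With antibody left out of the fit, it ranged between -3.29 and -2.73 with each library left out in turn and kept an adjusted p of at most 0.0236.

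Irs2, the other adaptor (ENSMUSG00000038894, chr8:10984681-11008458, minus strand), is a gene whose transcription FOXO1 raises in liver. It had 35.3, 102 and 153.6 CPM as the lowest, median and highest of the obese anti-PD-1 libraries and 27.1, 67.8, 41.3, 121 and 65.5 CPM in obese IgG2a 1 to 5. Lean anti-PD-1 1 to 5 had 31.4, 56.3, 32.3, 19.0 and 26.5 CPM, and lean IgG2a 1 to 5 had 52.9, 58.3, 48.2, 31.7 and 67.3 CPM. The obese groups were highest in 8 of 13 libraries, which lay above every lean library, and the 4 obese libraries with a B cell score above 4 were inside the lean range. In anti-PD-1 mice Irs2 rose in obesity, with 94.0 ± 40.0 CPM in 8 obese and 33.1 ± 14.0 CPM in 5 lean mice (1.51 ± 0.37, adjusted p = 0.0132). In IgG2a mice it had 64.6 ± 35.9 CPM in 5 obese and 51.7 ± 13.2 CPM in 5 lean mice (0.32 ± 0.39, adjusted p = 0.761). The interaction, 1.18 ± 0.53, did not pass (unadjusted p = 0.0366, adjusted p = 0.673).

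Irs2 rose in obesity among libraries with a B cell score below 4 (103.5 ± 27.7 CPM in 9 obese and 47.6 ± 25.3 CPM in 3 lean mice; 0.96 ± 0.30, adjusted p = 0.0294). Among those above 4 it had 35.7 ± 6.26 CPM in 4 obese and 40.2 ± 12.6 CPM in 7 lean mice (-0.09 ± 0.25, adjusted p = 0.851). The diet effects of the sets differed by -1.05 ± 0.39, which did not pass (adjusted p = 0.0886); with antibody ignored it passed without lean anti-PD-1 5 (-1.37, adjusted p = 0.0469) or lean IgG2a 5 (-1.66, adjusted p = 0.0289). The call across antibodies was lost with the B cell score as a covariate (0.52, adjusted p = 0.0602) and with the libraries below 4 fitted alone (0.89, adjusted p = 0.0873), and the libraries above 4 alone gave -0.07 (adjusted p = 0.817). The call in the set below 4 was lost without lean anti-PD-1 4, the lowest lean library, when antibody was ignored (0.78, adjusted p = 0.116).

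**Figure D2:**
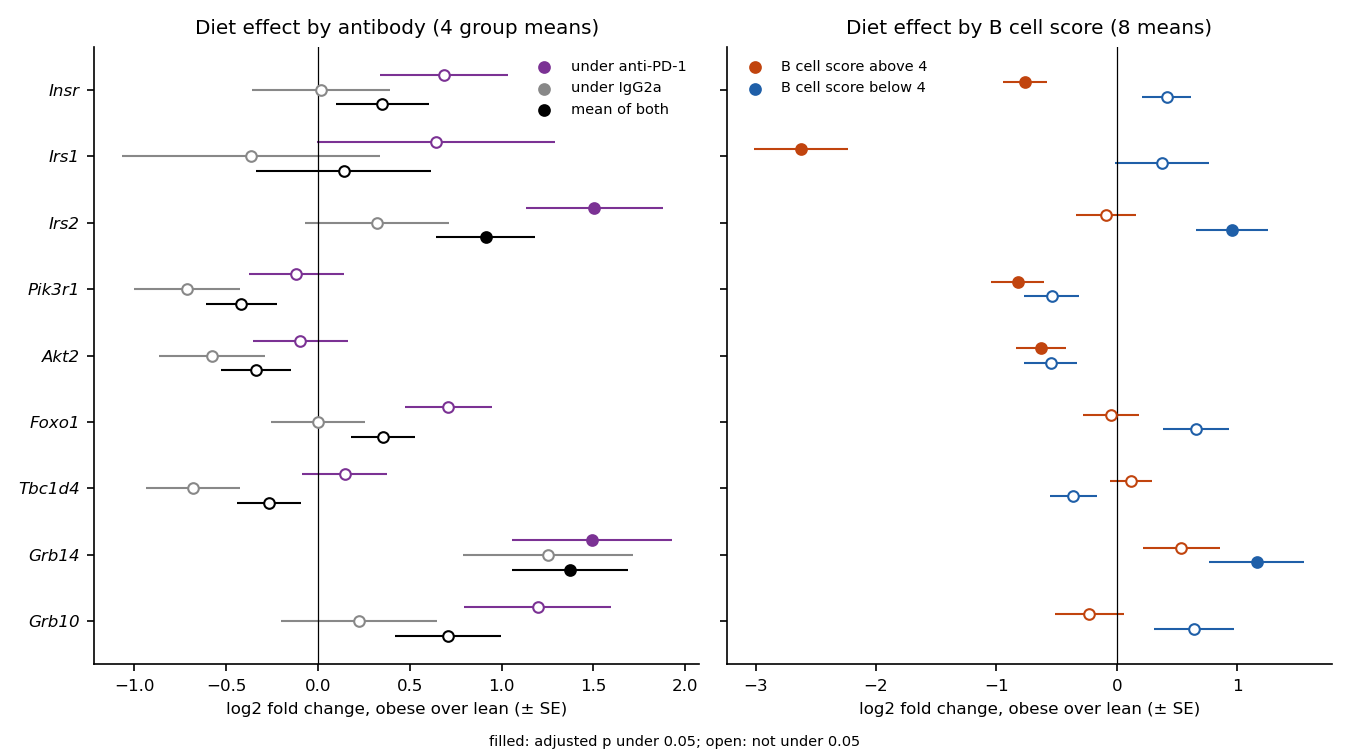
Log2 fold change of obese against lean mice for the 9 members, with bars of ± 1 SE. The left panel gives it by antibody and the right panel by B cell set, with filled points at an adjusted p under 0.05. Irs1, Insr, Irs2, Foxo1, Grb10 and Tbc1d4 have estimates of opposite sign in the sets above and below 4. The difference between the sets was called for Irs1 and Insr only.

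In the libraries with a B cell score above 4, other markers also differed between diets. Their B cell scores were 7.47 to 8.29 in obese and 5.16 to 7.70 in lean mice. The 12 adipocyte markers summed to 5806 to 20230 CPM in obese and 20900 to 52920 CPM in lean mice, without overlap, and none was at 0 in any library. Endothelial scores (6 genes) were 4.99 to 5.59 in obese and 5.88 to 7.08 in lean mice, and lymph node stroma scores (4 genes) 6.00 to 7.39 in obese and 3.91 to 6.08 in lean mice. Epithelium scores (11 genes) were 4.00 to 5.75 in obese and 5.96 to 7.29 in lean mice, without overlap, and macrophage scores (7 genes) 3.99 to 4.83 in obese and 3.41 to 4.34 in lean mice. The part of these cell types in the Irs1 and Insr results was not tested. Below 4, the adipocyte sum was 12200 to 53530 CPM in obese and 40570 to 58920 CPM in lean mice. Epithelium scores below 4 were 4.23 to 6.34 in obese and 6.66 to 8.00 in lean mice, also without overlap. Macrophage scores there were 4.10 to 5.66 in obese and 3.93 to 4.29 in lean mice, and endothelial scores 5.385 to 7.11 and 6.22 to 7.07. Lymph node stroma scores were -4.73 to -3.11 in obese and -3.89 to -2.75 in lean mice.

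Within obese mice, libraries above 4 also differed from those below 4 in most members. In the same fit 8 of 9 were called, beside 47.3% of all genes: Irs1 (-3.38), Insr (-1.60), Irs2 (-1.46), Grb14 (-1.45), Grb10 (-1.43), Pik3r1 (-0.73) and Akt2 (-0.62) were lower and Tbc1d4 (0.80) was higher, as log2 fold changes. Foxo1 was not called (-0.42 ± 0.23, adjusted p = 0.148). Within lean mice edgeR called 0 of 9, beside 5.65% of all genes, and 3 had an unadjusted p under 0.05. By diet, 4 of 9 members were called above 4 (16.6% of all genes), all lower in obese mice, and 2 of 9 below 4 (21% of all genes), both higher. The difference between the sets was called for 2 of 9, Irs1 and Insr, beside 9.56% of all genes.

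Pik3r1 encodes p85α, the regulatory subunit of PI3-kinase (ENSMUSG00000041417, chr13:101680563-101768217, minus strand). It had 249 ± 88.2 CPM in obese anti-PD-1, 166 ± 49.4 in obese IgG2a, 271 ± 58.9 in lean anti-PD-1 and 273 ± 85.8 in lean IgG2a mice (SD, n = 8, 5, 5 and 5). The diet difference was -0.42 ± 0.19 across antibodies and did not pass (adjusted p = 0.141). With a B cell score above 4, Pik3r1 fell to 125 to 148 CPM in 4 obese mice, against 171 to 379 CPM in 7 lean mice, without overlap (-0.82 ± 0.22, adjusted p = 0.0137). With antibody ignored that call was lost without obese anti-PD-1 3 or 4, obese IgG2a 1 or 3 or lean IgG2a 2 or 3, with values between -0.76 and -0.67. Below 4 the difference was -0.54 ± 0.23 (adjusted p = 0.100), with 252 ± 78.3 CPM in obese and 331 ± 39.1 CPM in lean mice. With the B cell score as a covariate in all libraries, Pik3r1 was called as lower (-0.61, adjusted p = 0.00411).

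Akt2 encodes the AKT isoform that carries most insulin signaling to glucose uptake in fat (ENSMUSG00000004056, chr7:27591552-27640826, plus strand). It had 402 ± 136 CPM in obese anti-PD-1, 290 ± 65.1 in obese IgG2a, 429.5 ± 114 in lean anti-PD-1 and 433 ± 115 in lean IgG2a mice. The diet difference was -0.34 ± 0.19 across antibodies (adjusted p = 0.246). Above 4 it fell to 245 ± 57.1 CPM in 4 obese mice, against 382 ± 90.2 CPM in 7 lean mice (-0.63 ± 0.21, adjusted p = 0.0423), a call that was lost with antibody ignored (-0.56, adjusted p = 0.0970). Below 4 the difference was -0.55 ± 0.22 (adjusted p = 0.0822). The B cell covariate gave a called value, -0.51 (adjusted p = 0.0105).

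Foxo1, the transcription factor that insulin excludes from the nucleus (ENSMUSG00000044167, chr3:52268336-52353221, plus strand), had 108, 142 and 255 CPM as the lowest, median and highest of the obese anti-PD-1 libraries. It had 94.4, 83.0, 92.1, 165 and 75.6 CPM in obese IgG2a 1 to 5. Lean anti-PD-1 1 to 5 had 133, 88.4, 104.5, 84.2 and 110.4 CPM, and lean IgG2a 1 to 5 had 85.4, 108, 118, 105 and 93.7 CPM. The obese anti-PD-1 group reached the highest values and overlapped every other group. In anti-PD-1 mice the diet difference was 0.71 ± 0.24 (adjusted p = 0.0593), and in IgG2a mice it was -0.00 ± 0.26 (adjusted p = 1.000). Neither passed, although DESeq2 called the difference in anti-PD-1 mice (0.71, adjusted p = 0.0231), as did edgeR without obese anti-PD-1 1, 3, 4, 7 or 8 or lean anti-PD-1 1 (0.75 to 0.81). Above 4 Foxo1 had 107 ± 19.1 CPM in 4 obese and 109 ± 14.5 CPM in 7 lean mice (-0.05 ± 0.23, adjusted p = 0.922). Below 4 it had 160 ± 68.2 CPM in 9 obese and 88.7 ± 4.77 CPM in 3 lean mice (0.66 ± 0.27, adjusted p = 0.0937), a difference that passed in the fit without antibody when any 1 of 7 libraries was left out (0.82 to 0.90).

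Tbc1d4 encodes AS160, the GTPase-activating protein that holds back GLUT4 vesicles until AKT phosphorylates it (ENSMUSG00000033083, chr14:101442360-101609191, minus strand). Over all libraries 66.9% of its counts were assigned to Tbc1d4-208, annotated as a retained intron, so its gene values do not stand for the coding message. The coding transcript Tbc1d4-209 had median TPM of 6.16 in obese anti-PD-1, 4.11 in obese IgG2a, 1.54 in lean anti-PD-1 and 2.91 in lean IgG2a mice. These medians mix the B cell sets. Summed over transcripts, Tbc1d4 had 78.2 ± 25.1 CPM in obese anti-PD-1, 55.1 ± 20.8 in obese IgG2a, 70.7 ± 16.1 in lean anti-PD-1 and 88.3 ± 7.83 in lean IgG2a mice. The diet difference was -0.27 ± 0.17 across antibodies (adjusted p = 0.317), 0.15 ± 0.23 in anti-PD-1 mice (adjusted p = 0.791) and -0.68 ± 0.26 in IgG2a mice (adjusted p = 0.127). None passed, but Tbc1d4 was called as lower with the adipocyte score as a covariate (-0.48 across antibodies, adjusted p = 0.0273, and -0.99 in IgG2a mice, adjusted p = 0.0120) and by limma-voom with library weights (-0.57 and -1.02). In IgG2a mice it was also called with the B cell covariate (-0.61, adjusted p = 0.0258). Above 4 it had 93.3 ± 23.4 CPM in 4 obese and 85.7 ± 12.0 CPM in 7 lean mice (0.12 ± 0.18, adjusted p = 0.700), and below 4 it had 58.6 ± 18.7 CPM in 9 obese and 65.1 ± 12.6 CPM in 3 lean mice (-0.36 ± 0.19, adjusted p = 0.188). Across the 23 libraries its Spearman correlation was negative with every other member except Foxo1, and lowest with Grb14 (-0.57), given as a description.

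Grb14, a receptor-binding inhibitor of insulin signaling (ENSMUSG00000026888, chr2:64912476-65024987, minus strand), had 7.25, 44.1 and 62.9 CPM as the lowest, median and highest of the obese anti-PD-1 libraries. It had 24.2, 44.8, 10.4, 70.0 and 31.1 CPM in obese IgG2a 1 to 5. Lean anti-PD-1 1 to 5 had 9.41, 18.9, 12.3, 18.6 and 15.6 CPM, and lean IgG2a 1 to 5 had 14.6, 13.03, 14.9, 7.46 and 25.7 CPM. Of the 13 obese libraries, 10 lay above every lean library, and obese anti-PD-1 3, obese IgG2a 1 and obese IgG2a 3 did not. Grb14 rose in obese anti-PD-1 mice (1.49 ± 0.44, adjusted p = 0.0317), and in IgG2a mice the difference was 1.25 ± 0.46 (adjusted p = 0.117; 1.49 and called without obese IgG2a 3). The interaction was 0.24 ± 0.62 (adjusted p = 0.979), so the diet effects were not shown to differ.

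Grb14 kept its call across antibodies with the B cell score, the adipocyte score or the skeletal muscle score as a covariate and with each library left out (1.18 to 1.54). Among libraries with a B cell score below 4 it had 49.4 ± 13.3 CPM in 9 obese and 21.1 ± 4.01 CPM in 3 lean mice and rose (1.16 ± 0.40, adjusted p = 0.0420), without overlap (31.1 to 70.0 and 18.6 to 25.7 CPM). That call was lost without lean anti-PD-1 2 (adjusted p = 0.0656) or lean anti-PD-1 4 (adjusted p = 0.0760) when antibody was ignored. Among those above 4 it had 18.0 ± 11.0 CPM in 4 obese and 12.4 ± 3.02 CPM in 7 lean mice (0.53 ± 0.32, adjusted p = 0.266), and with antibody ignored it was called without obese anti-PD-1 3 (0.89, adjusted p = 0.0444). The difference between the sets was -0.63 ± 0.50 (adjusted p = 0.437). The call in anti-PD-1 mice alone was lost when any 1 of 8 libraries was left out (obese anti-PD-1 2, 6 and 7 and each of the 5 lean ones), where the adjusted p reached 0.0770.

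Grb10, a relative of Grb14 and an imprinted gene in mice (ENSMUSG00000020176, chr11:11930508-12038683, minus strand), had 14.7, 81.0 and 102 CPM as the lowest, median and highest of the obese anti-PD-1 libraries. It had 33.1, 52.1, 26.1, 92.3 and 23.8 CPM in obese IgG2a 1 to 5. Lean anti-PD-1 mice had 30.4 ± 8.66 CPM and lean IgG2a mice 39.0 ± 11.2 CPM. The diet difference was 0.71 ± 0.29 across antibodies (adjusted p = 0.0912) and 1.20 ± 0.40 in anti-PD-1 mice (adjusted p = 0.0591), and neither passed. With the adipocyte score as a covariate it was 1.24 across antibodies and passed (adjusted p = 1.05e-07), and it also passed without obese anti-PD-1 3 (0.79, adjusted p = 0.0254). In anti-PD-1 mice it passed without obese anti-PD-1 3 (1.35) or 4 (1.31). Above 4 Grb10 had 14.7 to 33.1 CPM in 4 obese and 16.7 to 48.2 CPM in 7 lean mice (-0.23 ± 0.29, adjusted p = 0.631). Below 4 it had 75.7 ± 25.6 CPM in 9 obese and 42.6 ± 8.12 CPM in 3 lean mice (0.64 ± 0.33, adjusted p = 0.172), and with antibody ignored it passed without obese IgG2a 5 (0.87, adjusted p = 0.0233).

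Anti-PD-1 was compared with IgG2a within each diet. In obese mice 0 of 9 members were called, beside 0.538% of all genes (0.00503% as higher and 0.533% as lower), and all 9 estimates were above 0, between 0.22 and 0.89 (median 0.54; 3 with an unadjusted p under 0.05; 0 called by DESeq2 and 2 by limma-voom). Of the members, Foxo1 had the smallest p (0.74 ± 0.24, unadjusted p = 0.00495, adjusted p = 0.156), with 170 ± 61.6 CPM in 8 anti-PD-1 and 102 ± 35.9 CPM in 5 IgG2a mice. Pik3r1 (0.58 ± 0.26, adjusted p = 0.336) and Tbc1d4 (0.50 ± 0.24, adjusted p = 0.350) followed. Without obese IgG2a 4, the highest Foxo1 library of its group, Foxo1 was called (0.93, adjusted p = 0.0250). A B cell score above 4 occurred in 2 of 8 obese anti-PD-1 and 2 of 5 obese IgG2a libraries, and the adipocyte markers summed to a median of 46180 CPM in obese anti-PD-1 and 20230 CPM in obese IgG2a mice. With the B cell score as a covariate Tbc1d4 was called (0.68, adjusted p = 0.0279) and Foxo1 (0.70, adjusted p = 0.125) and Pik3r1 (0.35, adjusted p = 0.440) were not. With the adipocyte score as a covariate the values were 0.66 for Foxo1, 0.62 for Tbc1d4 and 0.31 for Pik3r1, none of them called.

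In lean mice edgeR called 0 of 9 members and 0% of all genes for the antibody; 0 members and 472 genes had an unadjusted p under 0.05, and DESeq2 called 22 genes and limma-voom 1. The member estimates ran between -0.64 (Irs2) and 0.03 (Foxo1). For the interaction, the antibody effect in obese mice minus that in lean mice, edgeR called 0 of 9 members and 0% of all genes; 2 members and 1449 genes had an unadjusted p under 0.05. Those members were Irs2 and Tbc1d4 (0.83 ± 0.35, unadjusted p = 0.0264, adjusted p = 0.646). Both were called by limma-voom with library weights (1.35, adjusted p = 0.0383 for Irs2, and 0.90, adjusted p = 0.0439 for Tbc1d4), and DESeq2 called neither. The interaction uses the same libraries as the comparisons within each diet.

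The transcripts that made up Tbc1d4, Grb10 and Akt2 counts differed between diets in share. For Tbc1d4, the coding transcript Tbc1d4-209 held a median of 50.2% of counts in obese anti-PD-1, 60.4% in obese IgG2a, 13.8% in lean anti-PD-1 and 18.4% in lean IgG2a mice. Tbc1d4-208, annotated as a retained intron, held 46.6%, 36%, 79.4% and 68.3% in the same order of groups. For Grb10, Grb10-201 held a median of 77.2% in obese anti-PD-1, 81.5% in obese IgG2a, 11.4% in lean anti-PD-1 and 25.5% in lean IgG2a mice, with single libraries from 0 to 99.4%. Akt2-214 held 22.6%, 25.4%, 13.8% and 12.3% of Akt2 counts in that order, and Akt2-201 most of the rest. Among obese libraries these shares also followed the B cell sets. Among lean libraries the medians of Grb10-201 and Akt2-214 were close above and below 4. Above 4, the diet order of the medians over both antibodies was turned for all 4 transcripts. Above 4, Tbc1d4-209 held a median of 5.39% in obese and 14.2% in lean libraries, and Tbc1d4-208 held 91.1 to 96.1% in obese and 62.9 to 89.4% in lean libraries, without overlap. Grb10-201 had medians of 19.5% in obese and 25.5% in lean libraries above 4, and Akt2-214 of 7.83% in obese and 12.3% in lean ones. The Grb10-201 ranges above 4 overlapped (0 to 28.5% in obese and 0 to 93.9% in lean libraries). Under anti-PD-1 the Grb10-201 order was not turned, with medians of 19.5% in obese and 11.4% in lean libraries above 4. Below 4, the medians in obese and lean libraries were 61.2% and 33.1% for Tbc1d4-209, 31% and 62.3% for Tbc1d4-208, 89.7% and 25.3% for Grb10-201 and 29.5% and 14% for Akt2-214. The 3 lean libraries below 4 spread between 0.463 and 99.4% for Grb10-201. Among obese libraries alone, Grb10-201 held 0 to 28.5% above 4 and 61.5 to 97.5% below 4. Transcripts of a gene share sequence, so their estimates are uncertain, and shares were not tested.

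In a transcript-level fit, added after the data were seen, edgeR's quasi-likelihood test called Grb14-201 as higher (1.35, adjusted p = 0.0153) and Akt2-201 as lower (-0.64, adjusted p = 0.0415) in obese mice across antibodies, beside 5.65% of 52636 transcripts. Irs2-201 was higher in obese anti-PD-1 mice (1.49, adjusted p = 0.0466), beside 1.76% of transcripts. The transcript fit was not made within the B cell sets. Irs1, Irs2 and Foxo1 each had 1 transcript in the files.

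**Figure D3:**
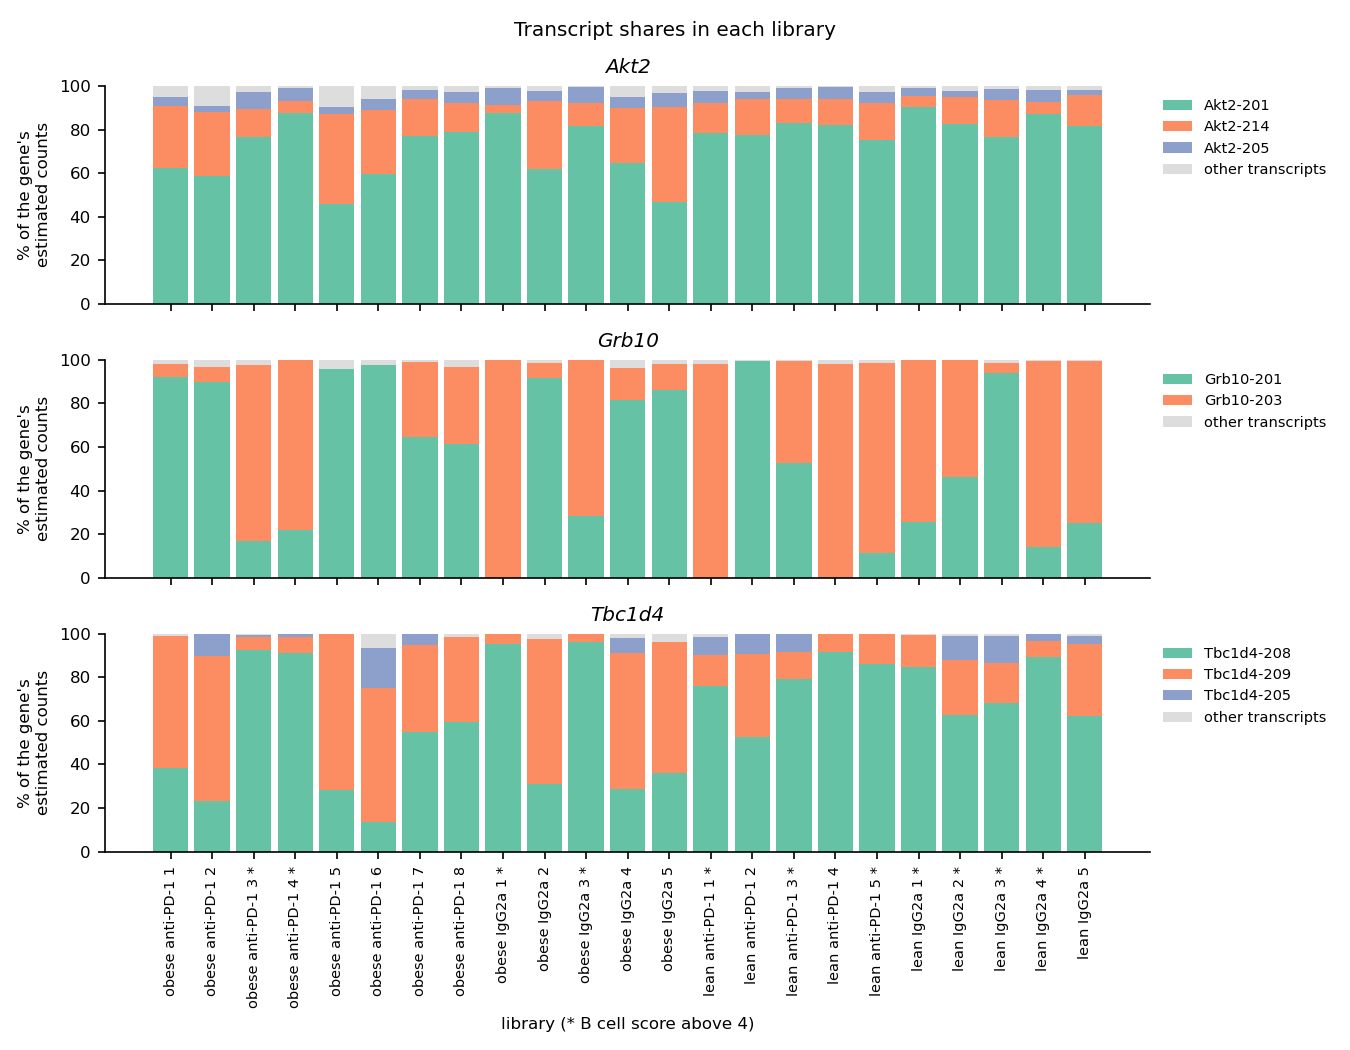
Share of estimated counts (percent of the gene) held by each main transcript of Akt2, Grb10 and Tbc1d4, stacked for each library, with an asterisk where the B cell score was above 4. Grb10-201 holds 61.5 to 97.5% in the obese libraries below 4, and Tbc1d4-208 has a larger median share in the lean groups than in the obese groups over all libraries but a smaller one among the libraries with an asterisk (79.4% in lean and 93.8% in obese mice).

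Of 86 other insulin pathway genes in 7 lists by role, 85 were tested, and Irs4 was not, for low counts. Across antibodies 15 rose and 9 fell in obese mice, 24 of 85 beside 18.8% of all genes, with a median log2 fold change of 0.12, the same to 2 decimals as over all genes. In anti-PD-1 mice 10 rose and 5 fell, beside 5.2% of all genes called as higher and 4.85% as lower. In IgG2a mice 3 rose and 7 fell, beside 2.68% as higher and 3.12% as lower. The rises across antibodies depended on the fit, with between 2 and 33 in the alternatives, and the falls numbered between 7 and 21. The 2 rises were found with the skeletal muscle score as a covariate. The largest differences were falls.

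Among the outputs of AKT, 1 of 9 rose and 4 fell. Beside this count and those of the lists that follow, 10.6% of all genes were called as higher and 8.15% as lower. Acly, the ATP citrate lyase that AKT phosphorylates and that feeds fatty acid synthesis, fell to 96.6 to 287 CPM in obese mice, against 2359 to 6449 CPM in lean mice (-4.63 ± 0.26, adjusted p = 5.7e-11). Srebf1, the lipogenic transcription factor induced by insulin, had 203.5 ± 52.7 CPM in obese and 563 ± 160 CPM in lean mice (-1.49 ± 0.17, adjusted p = 1.85e-06), without overlap. Ppp1r3c, a glycogen-targeting subunit of protein phosphatase 1, fell (14.2 ± 7.41 CPM in obese and 46.1 ± 18.5 CPM in lean mice; -1.79 ± 0.29), while Mdm2, the p53 ubiquitin ligase, rose (0.54 ± 0.14, adjusted p = 0.00960). Of the 15 GLUT4 traffic genes, 2 rose and 1 fell, a count near the share over all genes. Slc2a4, which encodes GLUT4, fell to 35.6 to 251 CPM in obese mice, against 287 to 615 CPM in lean mice, without overlap (-1.68 ± 0.30, adjusted p = 4.0e-04). It fell under both antibodies, by 1.26 ± 0.38 on the log2 scale in anti-PD-1 mice (adjusted p = 0.0388) and by 2.11 ± 0.45 in IgG2a mice (adjusted p = 0.00752). Lnpep (1.67), the aminopeptidase IRAP of GLUT4 vesicles, and Myo1c (1.01), a motor protein of their delivery, rose. Acly, Srebf1, Ppp1r3c and Slc2a4 kept their calls in every alternative fit across antibodies, including those within the B cell sets and with the adipocyte score as a covariate.

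Among 14 brakes, 3 rose and 1 fell: the AKT phosphatase Phlpp2 (0.75), the ubiquitin ligase Cbl (0.60) and the lipid phosphatase Inpp5k (0.31) were higher, and Grb7 (-1.43), the third member of the Grb7, Grb10 and Grb14 family, was lower. Grb7 had 9.81 ± 4.33 CPM in obese and 26.5 ± 10.3 CPM in lean mice (adjusted p = 3.8e-04), a direction opposite to that of Grb14. All 11 epithelium markers also fell in obese mice, and the part of epithelium in the Grb7 value was not tested. Of 9 adaptor and receptor genes tested, Igf1r (0.76), Gab1 (1.04) and Sos1 (0.53) rose, and Sh2b2 (-1.25), the adaptor APS, fell. In the PI3K, PDK1 and AKT list Pdpk1 (0.51), the kinase that activates AKT, rose. Among 16 FOXO factors and targets, 4 rose and 2 fell; Cited2 (1.06), Sesn3 (0.67) and Foxo4 (0.56) were among those higher, and Pdk4 (-1.25) and the lipase Pnpla2 (-0.93) were lower. In the mTORC1 list edgeR called 0 of 10, with 2 at an unadjusted p under 0.05. Leaving out 1 library ended the call of Gab1 (without obese IgG2a 5), Pdpk1 (obese anti-PD-1 5 or 6), Sos1 (lean anti-PD-1 2 or 4), Sesn3 (any 1 of 4 lean libraries), Foxo4 (any 1 of 6) and Inpp5k (any 1 of 10). Grb7, Sh2b2, Pdk4 and Pnpla2 were called as lower both in the libraries above 4 fitted alone and in those below 4 fitted alone, and Sesn3 was called as higher in both. Cited2 (0.25 above 4 and 1.16 below), Myo1c (0.15 and 0.99), Phlpp2 (0.12 and 0.82), Cbl (0.30 and 1.11) and Mdm2 (0.31 and 0.88) were called below 4 and not above. Inpp5k (0.35 and 0.17) was called in neither set. Above 4, Igf1r, Gab1, Sos1, Foxo4, Lnpep and Pdpk1 had values below 0, none of them called. For these pathway genes the difference between the sets was not tested.

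**Figure D4:**
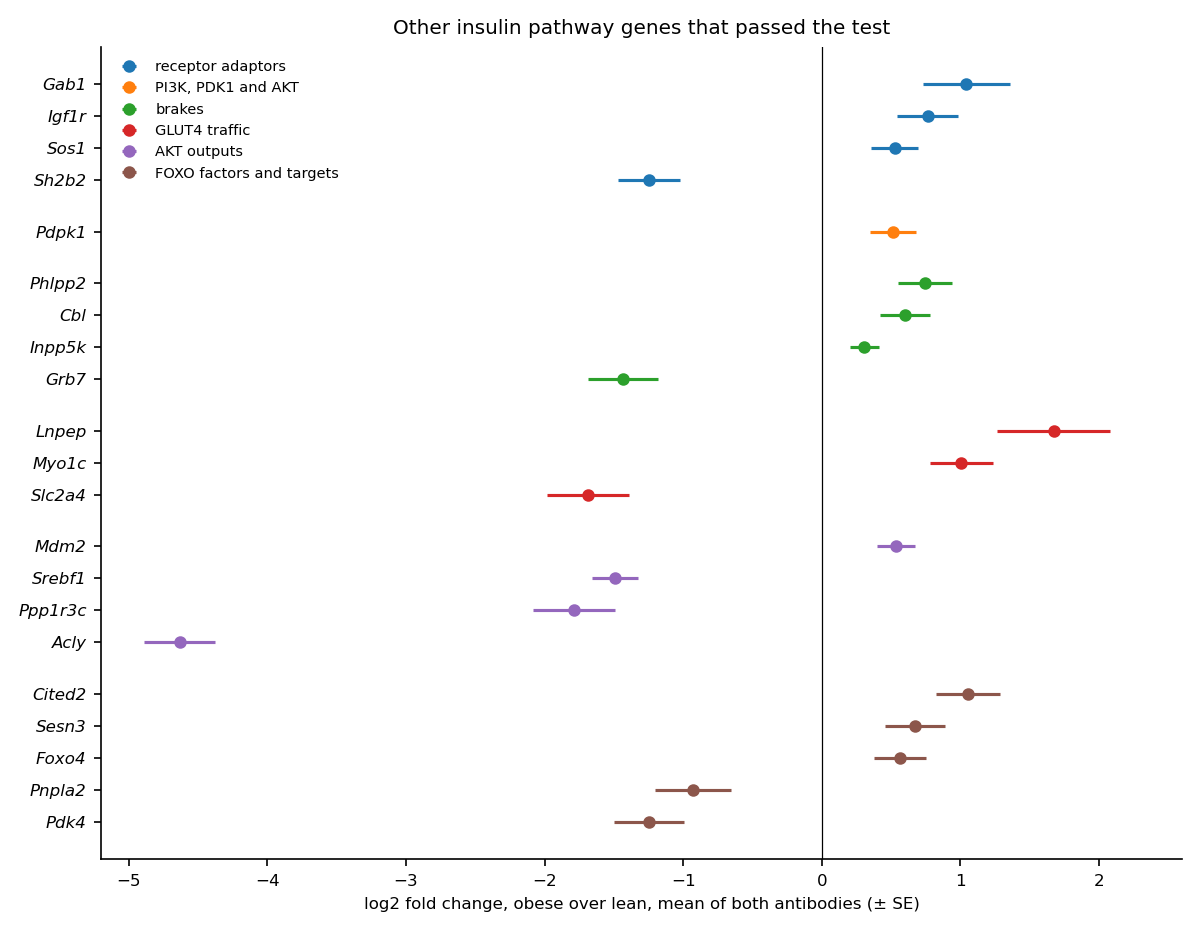
Log2 fold change of obese against lean mice across antibodies for other pathway genes that passed the test, at most 3 per direction in each list, grouped by list, with bars of ± 1 SE. Acly at -4.63 lies furthest from 0, and Slc2a4, Srebf1, Ppp1r3c, Grb7, Sh2b2, Pdk4 and Pnpla2 also lie below 0.

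Members varied together across libraries. Insr had a Spearman correlation of 0.90 with Irs2 and 0.89 with Irs1 over the 23 libraries, Akt2 of 0.82 with Pik3r1, and Grb14 of 0.80 with Grb10, all on log2 CPM. Among 11839 genes compared, those most like Grb14 were Mpdz (0.95), a PDZ scaffold protein, Efemp1 (0.95), an extracellular matrix protein, and Camk1 (0.93), a calcium-dependent kinase. Those most like Irs2 were Apcdd1 (0.94), Atrnl1 (0.93) and Dop1b (0.93). These correlations describe libraries that share diets and B cell sets.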

How the data were processed

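RNA of tumor-adjacent mammary fat pad was measured with non-directional, poly(A)-enriched libraries, per the labels' protocols, from RNA with an integrity number above 5. The deposited files give estimated counts, not normalized, and TPM for 115088 transcripts. Per the submitters' processing notes, edgeR, limma and GRCm38 were used, with no version named; which quantifier made the files was not given in the sources used here. In GENCODE M21, 114200 transcripts matched, and the 888 others held at most 0.208% of any library's counts. The deposited estimated counts were summed per gene and rounded. Genes were kept by filterByExpr (minimum count 10). All 23 libraries were fitted with 1 mean per group (TMM, edgeR 4.0.16, R 4.3.3, robust quasi-likelihood; common biological coefficient of variation 0.805), giving 6 two-sided comparisons, each Benjamini-Hochberg adjusted over 19882 genes. Deposited TPM served to compare levels between genes and, as log2(TPM + 1), in 1 alternative. Each library is 1 mouse per the labels, so p-values measure the spread between mice; the labels give no batch. Counts are estimates, so depth speaks for counting error only. The fit was tested on simulated data.

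The members and gene lists were chosen with earlier results of these data known, as was the split at a B cell score of 4. Named are all members, up to 3 called genes of smallest p per direction in each pathway list (1 of them is not reported here), and for each called member the 3 genes of highest Spearman correlation with a mean of at least 4 CPM. Alternatives were DESeq2 1.42.0, limma-voom and limma-trend (3.58.1), other filters, length offsets, marker scores as covariates, library subsets and each library left out.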

Additional observations from a re-analysis of the deposited data

Results flagged for a closer look

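In 3 of 36 groups of member values, 1 library stood apart from its group by Dixon's criterion, which chance alone passes in about 1 group in 20. Insr in lean anti-PD-1 1 was 62.0 CPM, with a gap of 0.744 of the group's range. Pik3r1 in obese IgG2a 4 was 252 CPM, with a gap of 0.745. Foxo1 in the same library was 165 CPM, with a gap of 0.789.

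The diet effect differed between libraries with a B cell score above 4 and those below for Irs1, by -3.00 (adjusted p = 0.00642), and for Insr, by -1.18 (adjusted p = 0.0162), in edgeR's quasi-likelihood test of the difference. The adipocyte, endothelial, lymph node stroma, epithelium and macrophage marker values by diet within these sets are given beside the results, and their part was not tested.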

How the results depend on the processing

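Grb14 and Irs2 kept their calls across antibodies with each library left out. Grb14 lost its call there only in the libraries with a B cell score above 4 (0.54, adjusted p = 0.311), and Irs2 in 4 alternatives: the B cell covariate (0.52), the libraries above 4 (-0.074), those below 4 (0.89) and without obese IgG2a 2 and 5 (0.90, adjusted p = 0.0522). In anti-PD-1 mice Grb14 also lost it with the muscle covariate (1.41, adjusted p = 0.0777). No paired analysis was possible because the labels give no replicate numbers that pair mice across groups. Estimated counts of the members were not near 0 in any library, so depth limits the transcript shares more than the gene levels. The median of all genes across antibodies, 0.12 in the reported fit, was 0.23 with no filter, 0.25 with TPM, 0.29 in the libraries below 4 and 0.00067 in those above 4. The cause of the changes listed next was not tested.

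In the diet comparison under IgG2a, genes called numbered 1152 (495 to 1662 with 1 library left out) and became 2966 with the B cell covariate, 1809 with the adipocyte covariate, 550 with the muscle covariate, 1896 with the libraries above 4, 255 with the libraries below 4, 293 without obese IgG2a 2 and 5, 583 with only the groups compared, 4883 with voom and 2075 with DESeq2. Members called higher numbered 0 (0 to 1 with 1 library left out) and became 2 with the adipocyte covariate, 1 with voom and 1 with DESeq2. Members called lower numbered 0 and became 3 with the B cell covariate, 1 with the adipocyte covariate, 2 with the libraries above 4 and 3 with voom. In the diet comparison under anti-PD-1, genes called numbered 1999 (1108 to 2432 with 1 library left out) and became 4537 with the adipocyte covariate, 1262 with the muscle covariate, 574 with the libraries above 4, 6392 with voom, 3576 with TPM and 3117 with DESeq2. Members called higher numbered 2 (1 to 4 with 1 library left out) and became 4 with a stricter filter, 5 with the adipocyte covariate, 1 with the muscle covariate, 0 with the libraries above 4, 5 with voom, 4 with TPM and 4 with DESeq2. In the diet comparison across antibodies, genes called numbered 3731 and became 5950 with the adipocyte covariate, 1911 with the muscle covariate, 2370 without obese IgG2a 2 and 5, 8204 with voom and 5807 with TPM. Members called higher numbered 2 and became 1 with the B cell covariate, 4 with the adipocyte covariate, 0 with the libraries above 4, 1 with the libraries below 4, 1 without obese IgG2a 2 and 5, 4 with voom and 4 with TPM. Members called lower numbered 0 and became 2 with the B cell covariate, 1 with the adipocyte covariate, 3 with the libraries above 4 and 1 with voom. For anti-PD-1 against IgG2a in obese mice, genes called numbered 107 (0 to 643 with 1 library left out) and became 70 with no filter, 49 with a stricter filter, 52 with length offsets, 605 with the B cell covariate, 0 with the adipocyte covariate, 39 with the muscle covariate, 0 with the libraries above 4, 767 with the libraries below 4, 0 without obese IgG2a 2 and 5, 0 with only the groups compared, 2704 with voom, 0 with TPM and 400 with DESeq2. Members called higher numbered 0 (0 to 1 with 1 library left out) and became 1 with the B cell covariate and 2 with voom. For anti-PD-1 against IgG2a in lean mice, genes called numbered 0 and became 2 with the libraries below 4, 1 with only the groups compared, 1 with voom and 22 with DESeq2. For the interaction, genes called numbered 0 (0 to 1 with 1 library left out) and became 2 with the libraries below 4, 623 with voom and 50 with DESeq2. Members called higher numbered 0 and became 2 with voom.

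Some values of members and pathway genes turned sign. For obese against lean IgG2a mice, the B cell covariate gave Insr -0.39, Irs2 -0.0040 and Grb10 -0.070, the muscle covariate gave Insr -0.11, the libraries above 4 gave Insr -1.14, Irs2 -0.51 and Grb10 -0.30, the libraries below 4 gave Insr -0.019 and Foxo1 0.14, leaving out obese IgG2a 2 and 5 gave Insr -0.20 and Foxo1 0.22, only the groups compared gave Insr -0.031, the adipocyte covariate gave Irs1 0.65, Akt2 0.027 and Foxo1 0.13, no filter gave Foxo1 0.0097, a stricter filter gave Foxo1 0.021, length offsets gave Foxo1 0.013, TPM gave Foxo1 0.27, DESeq2 gave Foxo1 0.033. For obese against lean anti-PD-1 mice, the libraries above 4 gave Insr -0.37, Irs1 -2.05 and Grb10 -0.14, the B cell covariate gave Irs1 -0.66, length offsets gave Akt2 0.049, the adipocyte covariate gave Akt2 0.044, voom gave Akt2 0.10, Pik3r1 0.047 and Tbc1d4 -0.12, TPM gave Akt2 0.49 and Pik3r1 0.35. For obese against lean mice across antibodies, the B cell covariate gave Insr -0.092 and Irs1 -1.07, the libraries above 4 gave Insr -0.75, Irs1 -2.61, Irs2 -0.074, Tbc1d4 0.13, Foxo1 -0.031, Grb10 -0.22, Foxo4 -0.23, Lnpep -0.33, Igf1r -0.035, Gab1 -0.33, Sos1 -0.12 and Pdpk1 -0.14, the muscle covariate gave Irs1 -0.036, the adipocyte covariate gave Akt2 0.036, TPM gave Akt2 0.16 and Pik3r1 0.035. For anti-PD-1 against IgG2a in obese mice, the libraries above 4 gave Pik3r1 -0.044. With antibody ignored, Foxo1 above 4 was 0.066. With 1 library left out, values that crossed 0 ranged as follows. Under IgG2a, the diet values were Insr -0.26 to 0.23, Irs2 -0.0040 to 0.53, Foxo1 -0.20 to 0.11 and Grb10 -0.17 to 0.39. Under anti-PD-1, they were Akt2 -0.22 to 0.032 and Pik3r1 -0.23 to 0.013. Across antibodies, the range was Irs1 -0.17 to 0.27. Above 4, they were Irs2 -0.25 to 0.067, Foxo1 -0.079 to 0.16 and Grb10 -0.30 to 0.010. Below 4, the range was Tbc1d4 -0.26 to 0.067, and for the difference of the diet effects, Akt2 -0.26 to 0.078.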
